A study of Mus musculus with 6 samples.

Results

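The 10 genes described here are the BCL2 family survival and death genes Bcl2, Bcl2l1, Mcl1, Bcl2a1a, Bcl2a1b, Bcl2a1d, Bcl2l11, Bbc3, Bax and Bak1. They were chosen by name, and all 10 of the 10 symbols were found among the 35275 genes listed. Proteins of this family decide whether the outer mitochondrial membrane is opened, the step that releases cytochrome c and starts the caspases. Guardians such as BCL2 and MCL1 hold the pore formers BAX and BAK in check, and BH3-only proteins such as BIM and PUMA bind the guardians or activate the pore formers. In B cells, resting follicular cells depend on BCL2 and MCL1, while germinal centre B cells are known for low BCL2 and for a need of MCL1. CD40 signals are known to raise the products of Bcl2l1 and of the Bcl2a1 genes.

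The data are FPKM values (reads scaled to gene length and to library size) of pan-B cells isolated with magnetic beads from mouse spleens. Wild-type (WT) mice and mice of the genotype CD40LΔ5, both of strain C57BL/6 and aged 6 to 8 weeks, were given sheep red blood cells, a T cell-dependent antigen, and were sampled on day 8. CD40 ligand is displayed mainly by helper T cells and engages CD40 on B cells. What Δ5 removes is not stated in the labels. There were 3 libraries per genotype, and nothing says whether each came from its own animal, so p-values measure only the spread between these libraries.

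The deposited table of group means did not follow the labels. Its MUT column equals the mean of WT replicate 1, WT replicate 2 and CD40LΔ5 replicate 2, and its WT column that of WT replicate 3, CD40LΔ5 replicate 1 and CD40LΔ5 replicate 3, within 3.33e-08 FPKM. Each gene is therefore given by library under its label name, and each comparison is given for both groupings. Reads on genes ranged from 24320080 to 27866611 per library. All 8 B cell markers were well expressed, led by Cd79a at a mean of 1731 FPKM, and their summed level ranged from 4442 to 5157 FPKM. Markers of other cells were present: the summed levels ranged over the 6 libraries from 36.0 to 46.7 FPKM for T cells, 21.5 to 55.7 for natural killer cells and 46.8 to 606 for neutrophils. They ranged from 117 to 322 FPKM for macrophages, 314 to 1187 for erythroid cells and 786 to 3950 for plasma cells. Most of the T cell sum was Lck, at a mean of 25.2 FPKM, with Cd3g next at 4.97 FPKM. None of the 71 listed markers of the 9 lists was at 0 in all libraries. In bulk RNA, fewer cells of a type and less RNA per cell cannot be told apart.

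The family covered a wide range of levels. Mcl1, a short-lived guardian that most B cell stages need, was the highest of the 10 at a mean of 248 FPKM over the 6 libraries, above 97.6% of the 11252 genes tested (those with a mean of at least 1 FPKM). Bax followed at 79.9 FPKM. Bcl2a1d at 20.1, Bak1 at 19.5, Bcl2 at 14.3 and Bcl2l11 at 14.1 FPKM formed a middle group, in which the ranges over the libraries overlapped between each gene and the next in order. Bcl2l1 at 4.63 and Bbc3 at 3.94 FPKM lay lower, also with ranges that overlapped. Bcl2a1a at 1.13 and Bcl2a1b at 1.04 FPKM lay just above the level for testing. All 10 genes were tested. Mean Mcl1 was 17.3 times mean Bcl2 in FPKM, and mean Bax was 4.10 times mean Bak1.

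**Figure D1:**
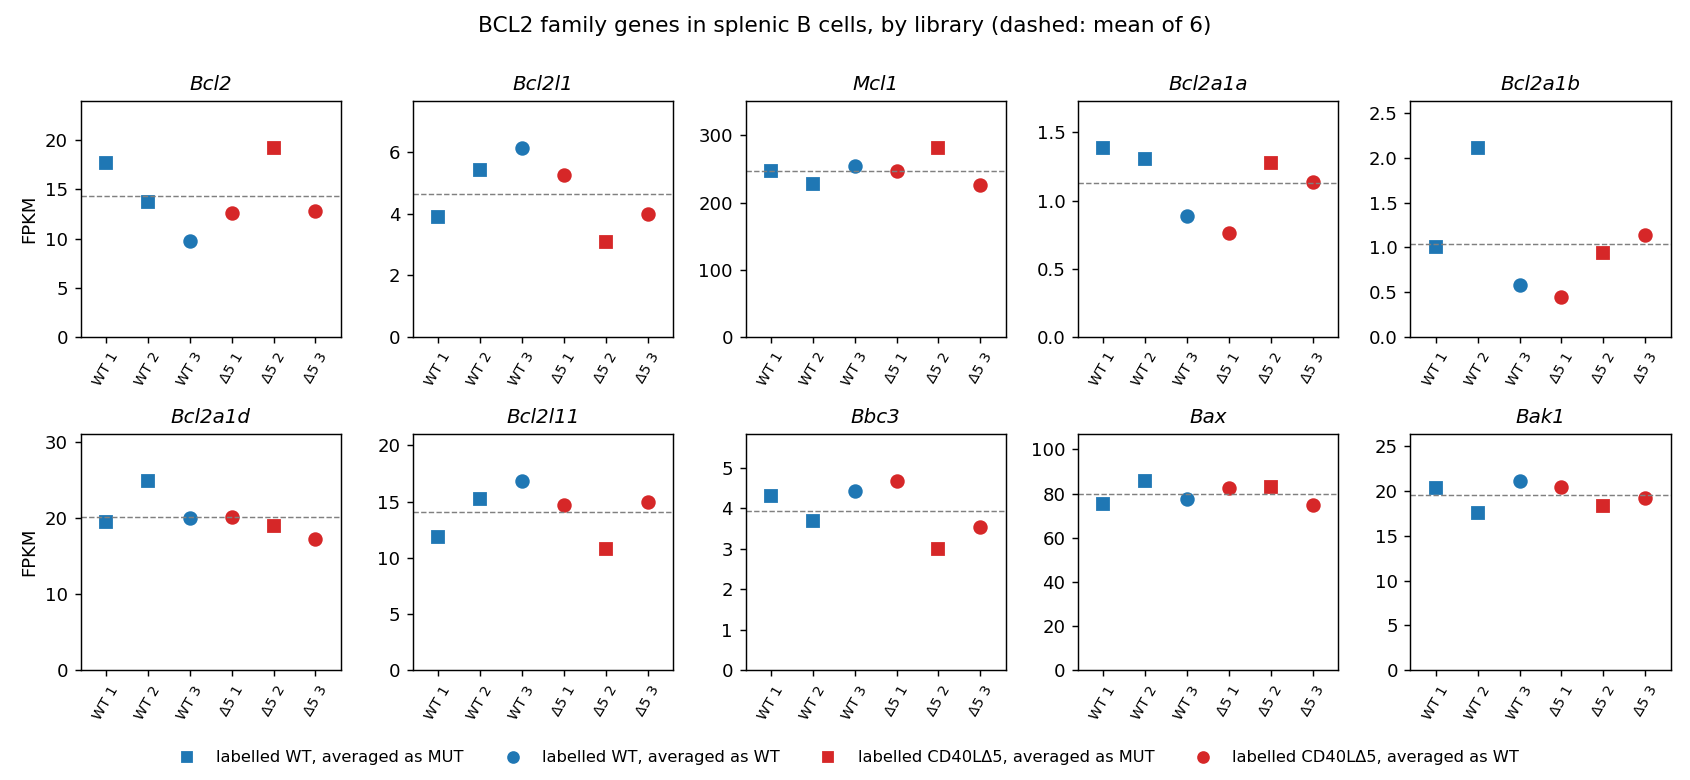
FPKM of the 10 genes in each library (x axis, with Δ5 for CD40LΔ5); colour gives the label, shape the column of the deposited table of means that includes the library, and the dashed line the mean of 6. Bcl2 was highest and Bcl2l11 lowest in CD40LΔ5 replicate 2 and WT replicate 1, while Bax and Bak1 stayed within 1.20 times from lowest to highest library.

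By the labels, no gene of the family passed the test between CD40LΔ5 and WT. The groups overlapped for all 10 genes, while over all genes 2.98% had no overlap with CD40LΔ5 higher and 1.32% with CD40LΔ5 lower. Bcl2, the founding guardian, averaged 14.9 ± 3.77 FPKM under the CD40LΔ5 label against 13.7 ± 3.94 under the WT label (SD, n = 3). Its log2 difference, on the log2(FPKM + 1) scale used throughout, was 0.12 ± 0.24 (SE), with a 95% interval from -0.45 to 0.69. Bcl2l1, which encodes BCL-XL, measured 4.11 ± 1.11 against 5.15 ± 1.15 FPKM, a log2 difference of -0.27 with an interval from -0.76 to 0.22. That of Bcl2a1b was -0.24, but -0.41 with a pseudocount of 0.1 and -0.42 with voom. Bcl2a1b averaged 0.843 FPKM under the CD40LΔ5 label and 1.23 under the WT label, so only the WT mean lay above the level for testing. Across the 10 genes the median log2 difference was -0.10, against 0.01 over all genes tested, with 3 positive and 7 negative values. Over all genes tested, 6248 values were positive and 5004 negative. limma called 0 of the 10 genes at a Benjamini-Hochberg adjusted p of 0.05, where the background is 0% of 11252 genes. At an unadjusted p under 0.05 the count was also 0 of 10, against 1.24% of all genes. limma voom on the reads recovered from FPKM called none of the 10 either.

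The intervals show what size of change these libraries leave possible. For Bax the 95% interval of the log2 difference ran from -0.20 to 0.23, for Bak1 from -0.25 to 0.21 and for Mcl1 from -0.23 to 0.32. The intervals of Bax and Bak1 were the narrowest of the 10 genes, and that of Bcl2a1d (-0.45 to 0.10) was about as wide as that of Mcl1. The widest was that of Bcl2a1b, from -0.93 to 0.45. A missed threshold does not show that the genotypes are alike within these bounds.

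In the sets of the table of means, again none of the 10 genes passed the test. The log2 difference of Bcl2 was 0.49 ± 0.15 (SE), with 16.9 ± 2.81 FPKM for the MUT set against 11.7 ± 1.69 for the WT set (SD, n = 3). Its limma adjusted p was 0.349 (unadjusted p = 0.0136), and its interval ran from 0.14 to 0.84. Bcl2 and Bcl2a1a were the 2 of 10 genes whose sets did not overlap, both with higher values in the libraries averaged as MUT. Bcl2a1a rests on 17 to 29 reads. It averaged 1.32 FPKM in the MUT set and 0.929 in the WT set, and Bcl2a1b 1.35 and 0.723. Both genes thus reached the level for testing only through the MUT set, so nothing is read from their differences. Over all genes, 16.9% did not overlap, 12.1% with MUT higher and 4.79% with MUT lower, so 2 of 10 is near the background. An exact permutation test of 3 against 3 libraries gave p = 0.1 for Bcl2, two-sided, the smallest it can give. The unadjusted p was under 0.05 for 1 of 10 genes, against 13% of all genes, and the adjusted p for 0 of 10, against 0.0267%. The log2 difference of Bcl2a1b was 0.43, but 0.82 with a pseudocount of 0.1 and 0.89 with voom. The log2 differences of Bcl2 were 0.52 and 0.52 under these 2 settings. Among the 6 guardians 5 had positive and 1 (Bcl2l1) a negative difference, with a median of 0.20. The 5 include Bcl2a1a, Bcl2a1b and Bcl2a1d, which are nearly identical copies, and Mcl1 at 0.05. Both BH3-only genes had negative differences, Bcl2l11 of -0.29 and Bbc3 of -0.16. Over all genes tested, 6979 values were positive and 4273 negative. The median over the 10 genes was 0.05, equal at 2 decimals to that over all genes tested. By the labels, 2 guardians had positive and 4 negative differences, and both BH3-only genes negative ones.

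**Figure D2:**
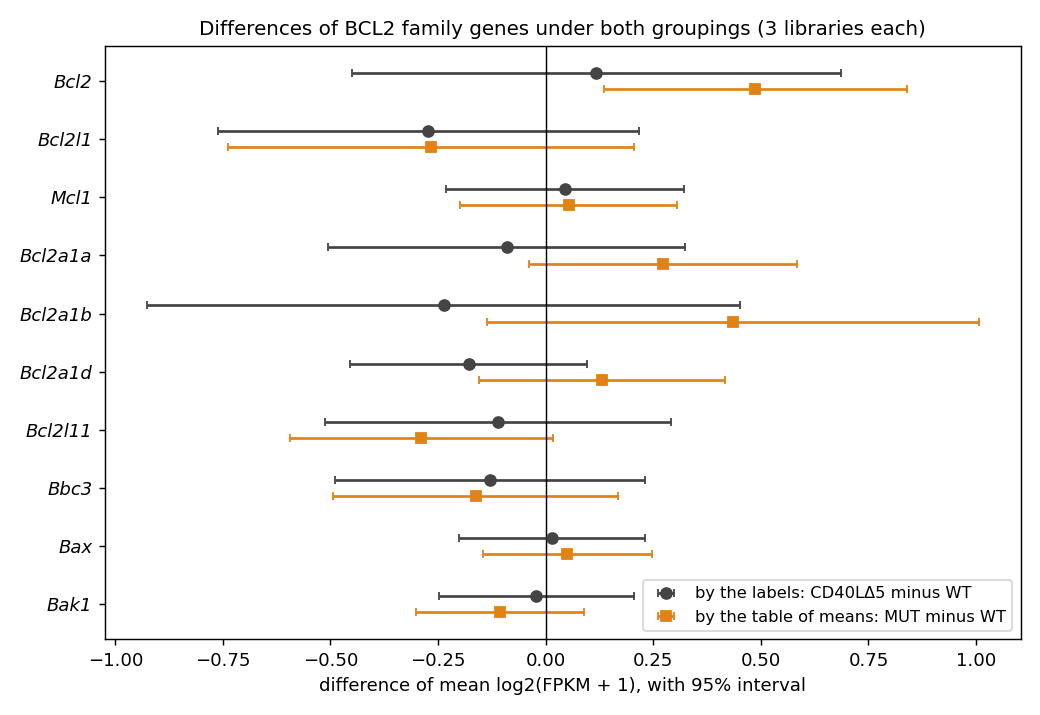
Difference of mean log2(FPKM + 1) for each of the 10 genes, with 95% intervals from limma, by the labels (circles, CD40LΔ5 minus WT) and by the table of means (squares, MUT minus WT), 3 libraries a group. The only interval that leaves out 0 is that of Bcl2 by the table, from 0.14 to 0.84, and its adjusted p was 0.349.

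Bcl2 varied more between libraries of a label than between the labels. It read 17.7, 13.8 and 9.78 FPKM across WT replicates 1, 2 and 3, then 12.6, 19.2 and 12.8 across CD40LΔ5 replicates 1, 2 and 3. CD40LΔ5 replicate 2 and WT replicate 1 were thus the 2 highest, and WT replicate 3 the lowest, at 1.97 times less than the highest. These values rest on 1940 to 3435 reads. Counting alone would give a coefficient of variation of 1.93% at the mean of these reads, while that of the FPKM values was 24.5%.

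The same pair of libraries had the lowest levels of germinal centre and cell cycle markers. The 8 germinal centre markers, led by Bcl6, the master regulator of that state, summed to 39.1, 125 and 154 FPKM across WT replicates 1, 2 and 3, then 163, 54.4 and 90.9 across CD40LΔ5 replicates 1, 2 and 3. The 8 cell cycle markers summed to 53.4, 97.3 and 134 FPKM and to 132, 54.3 and 96.4 FPKM in the same order. WT replicate 3, the lowest for Bcl2, was the highest for the cell cycle sum and the second highest for the germinal centre sum. The plasma cell sum was lowest in this pair as well, at 786 FPKM in CD40LΔ5 replicate 2 and 976 FPKM in WT replicate 1 against 1648 to 3950 FPKM elsewhere. The B cell sum was highest in it, at 5148 and 5157 FPKM. The natural killer cell sum was highest in the same pair too, at 55.7 FPKM in CD40LΔ5 replicate 2 and 50.2 FPKM in WT replicate 1. The part of these cells in the Bcl2 values was not tested. By the table both of these libraries belong to the MUT set, so without them WT replicate 2 alone would stand for it.

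**Figure D3:**
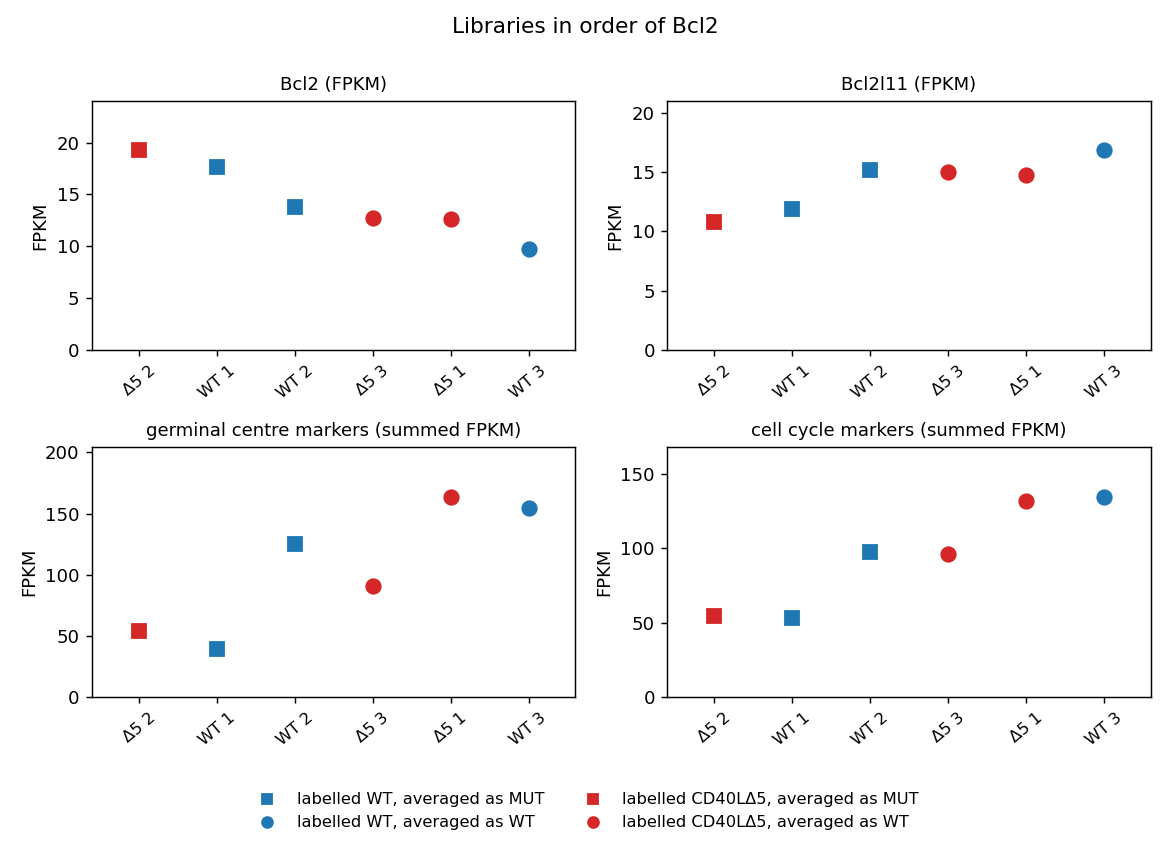
Bcl2, Bcl2l11, and the summed germinal centre and cell cycle markers in FPKM, with the 6 libraries on the x axis in order of falling Bcl2; colours and shapes are those of the plot of all 10 genes. The 2 libraries highest for Bcl2 (19.2 and 17.7 FPKM) are the 2 lowest for Bcl2l11 and for both marker sums.

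Bcl2l1 and Bcl2l11 had the reverse order at its ends. Bcl2l11 encodes BIM, the BH3-only protein that removes autoreactive and unneeded B cells, and read 11.9, 15.2 and 16.8 FPKM across WT replicates 1, 2 and 3, then 14.7, 10.8 and 14.97 across CD40LΔ5 replicates 1, 2 and 3. It was lowest in CD40LΔ5 replicate 2 and WT replicate 1 and highest in WT replicate 3. Bcl2l1 stood at 3.89, 5.43 and 6.14 FPKM and at 5.27, 3.07 and 3.98 FPKM in the same order, and shared the lowest pair and the highest library with Bcl2l11. Within a library the ratio of Bcl2 to Bcl2l11 in FPKM ran from 0.582 in WT replicate 3 to 1.79 in CD40LΔ5 replicate 2, with 1.49 in WT replicate 1 and 0.852 to 0.906 in the other 3. This ratio was 1.17 ± 0.538 under the CD40LΔ5 label against 0.991 ± 0.458 under the WT label, and 1.39 ± 0.448 against 0.764 ± 0.158 for MUT against WT in the table (SD, n = 3; no test). Values per gene do not separate the long and short splice forms of either gene.

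By the table, Bcl2l11 measured 12.6 ± 2.31 against 15.5 ± 1.14 FPKM (SD, n = 3; limma adjusted p = 0.398), and the sets overlapped because WT replicate 2 lay above 2 of the libraries averaged as WT. Bbc3 encodes PUMA, the BH3-only protein induced by p53, and read 4.30, 3.69 and 4.42 FPKM across WT replicates 1, 2 and 3, then 4.67, 2.997 and 3.54 across CD40LΔ5 replicates 1, 2 and 3. It was lowest in CD40LΔ5 replicate 2 but, unlike Bcl2l11, not low in WT replicate 1. By the labels Bbc3 measured 3.73 ± 0.851 FPKM in CD40LΔ5 and 4.14 ± 0.387 FPKM in WT (SD, n = 3), a log2 difference of -0.13 ± 0.15 (SE).

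Mcl1 and both pore formers varied least. Mcl1 read 248, 228 and 254 FPKM across WT replicates 1, 2 and 3, then 247, 282 and 227 across CD40LΔ5 replicates 1, 2 and 3, with the highest value in CD40LΔ5 replicate 2 as for Bcl2. WT replicate 1, second for Bcl2, lay close to the mean of Mcl1. Bax stood at 75.2, 85.6 and 77.7 FPKM and at 82.6, 83.2 and 75.1 FPKM in the same order, and the groups interleaved under both groupings. Bak1 stood at 20.3, 17.5 and 21.05 FPKM and at 20.4, 18.3 and 19.2 FPKM. The SD of log2(FPKM + 1) over the 6 libraries was 0.08 for Bax, 0.10 for Bak1 and 0.11 for Mcl1, above 11.9%, 21.8% and 32.7% of all genes tested. For Bcl2, Bcl2l1 and Bcl2l11 it was 0.33, 0.30 and 0.23, above 86.7%, 84.7% and 75.4%. This SD depends on the level of a gene, so the shares only describe where each gene lies. In the files Mcl1 lies at chr3:95658721-95663176 on the plus strand, Bcl2 at chr1:106538178-106714274 and Bak1 at chr17:27019810-27029009, both on the minus strand. Bcl2 overlaps D630008O14Rik and Bak1 overlaps Ggnbp1 on the opposite strand, both below 1 FPKM in all libraries, and strand use in counting is not stated. Of the 50-base words of Bak1, 18.2% also occur, on either strand, in transcripts of Ggnbp1, and of those of Bax 13.8% in Gm45808. The words come from the longest GENCODE M21 transcript of each gene. For Bax that transcript has 1100 bases, against a deposited gene length of 869. Deposited spans equal those of GENCODE M21 for 7 of the 10 members, but not for Bax, Bbc3 and Mcl1. Of the 50-base words of Bcl2, 6.70% occur in transcripts of 505 other genes, and of those of Bcl2l11 0.221% in 504. Of the 100-base words of Bcl2, 5.63% occur in 1 other gene, the overlapping D630008O14Rik, and of those of Bcl2l11 0% occur elsewhere.

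The Bcl2a1 genes are recent copies of a single guardian gene on mouse chromosome 9, and their near identity limits what their values mean. In the files Bcl2a1d lies at chr9:88723285-88731914 on the minus strand, Bcl2a1a at chr9:88956900-88962419 and Bcl2a1b at chr9:89199209-89207827 on the plus strand, coordinates that equal those of GENCODE M21 on GRCm38, although the submitters' processing notes name mm9. Their coding sequences are 519 bases long and differ at 12 positions in all. The first 90 coding bases are printed because they include 6 of these positions, the most of any stretch of that length, with the differing bases in capitals (GENCODE M21, 5′ to 3′, coding strand).
Bcl2a1a: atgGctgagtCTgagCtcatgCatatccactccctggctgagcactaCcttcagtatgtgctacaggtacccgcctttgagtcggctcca
Bcl2a1b: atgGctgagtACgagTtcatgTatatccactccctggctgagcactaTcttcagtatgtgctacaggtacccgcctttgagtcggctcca
Bcl2a1d: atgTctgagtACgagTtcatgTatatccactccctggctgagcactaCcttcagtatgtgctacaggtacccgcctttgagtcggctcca
Over whole transcripts the identity was 98.2% between Bcl2a1a and Bcl2a1b, 98.8% between Bcl2a1a and Bcl2a1d and 99.1% between Bcl2a1b and Bcl2a1d. Of all 50-base words of these transcripts, 69.0% for Bcl2a1a, 79.2% for Bcl2a1b and 79.5% for Bcl2a1d also occur in a transcript of another gene. For 100-base words the shares were 43.5%, 56.8% and 54.7%. The read length and the treatment of reads that match several genes are not stated in the labels or notes, so the split of reads between the paralogs is uncertain.

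Most reads of the 3 paralogs were assigned to Bcl2a1d. It took 88.5% to 94.6% of their 451 to 590 reads per library, and its mean FPKM was 17.9 times that of Bcl2a1a and 19.4 times that of Bcl2a1b. Bcl2a1d read 19.6, 24.9 and 20.0 FPKM across WT replicates 1, 2 and 3, then 20.1, 18.9 and 17.3 across CD40LΔ5 replicates 1, 2 and 3. WT replicate 2 was the highest and the other 5 lay close together, so the labels overlapped, at 18.8 ± 1.44 FPKM for CD40LΔ5 and 21.5 ± 2.95 FPKM for WT (SD, n = 3; limma adjusted p = 0.999993). Bcl2a1a stood at 1.39, 1.31 and 0.885 FPKM and at 0.764, 1.28 and 1.14 FPKM in the same order, on 17 to 29 reads. Its coefficient of variation over the libraries, 22.2%, was close to the 20.4% that counting alone gives at this depth. Bcl2a1b stood at 1.01, 2.11 and 0.577 FPKM and at 0.450, 0.936 and 1.14 FPKM, on 10 to 42 reads, and varied more than counting alone gives (56.8% against 21.4%). It overlaps a listed predicted gene on the same strand, RP23-121I20.3, which is at 0 FPKM in all libraries. How reads in this overlap were counted is not known, and its effect on the Bcl2a1b values was not tested.

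Summed into a single gene, the paralogs had a log2 difference of -0.19 by the labels (limma adjusted p = 0.999993) and of 0.18 by the table (adjusted p = 0.522), so the direction turned with the grouping, as it did for each paralog alone. Bcl2a1 genes are also expressed by neutrophils and macrophages. CD40LΔ5 replicate 3 had the highest neutrophil sum, 606 FPKM, and WT replicate 1 the highest macrophage sum, 322 FPKM. Counted from the highest library, Bcl2a1d ranked 6 in CD40LΔ5 replicate 3 and 4 in WT replicate 1. Bcl2a1a ranked 4 and 1 in these libraries, and Bcl2a1b 2 and 3. The part of neutrophils and macrophages in the Bcl2a1 values was not tested.

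**Figure D4:**
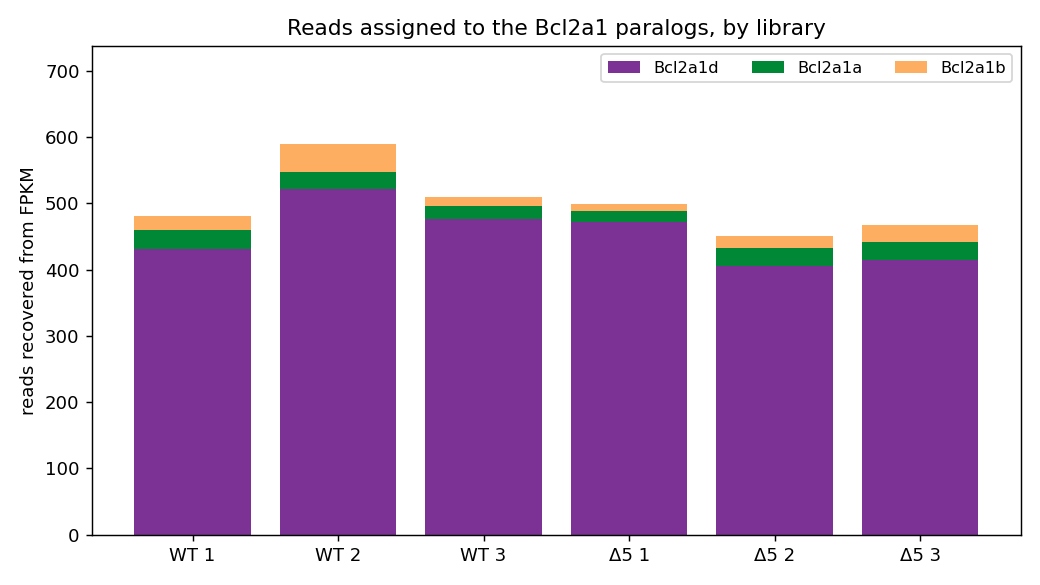
Reads assigned to Bcl2a1d, Bcl2a1a and Bcl2a1b in each library (stacked bars, y axis in reads recovered from FPKM, x axis libraries with Δ5 for CD40LΔ5). Bcl2a1d takes 88.5% to 94.6% of the reads in every library, and WT replicate 2 has the most reads, 590.

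The promoters of these copies are much alike, while the assigned levels of Bcl2a1d and Bcl2a1a differ 17.9-fold. The windows from 250 bases before to 50 bases after the RefSeq start are shown for these paralogs to let them be set side by side (RefSeq, GRCm38.p6, 5′ to 3′ on the strand of the gene). Capitals mark AGGAAGTG, letters that include the GGAA core bound by ETS factors such as PU.1.
Bcl2a1d, chr9:88731801-88732100, minus strand: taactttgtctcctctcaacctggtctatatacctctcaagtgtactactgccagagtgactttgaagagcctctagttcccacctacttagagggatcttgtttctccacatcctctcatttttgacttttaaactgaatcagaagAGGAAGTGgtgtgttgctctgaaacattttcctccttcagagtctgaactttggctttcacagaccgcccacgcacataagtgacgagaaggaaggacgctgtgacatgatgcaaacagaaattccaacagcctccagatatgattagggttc
Bcl2a1a, chr9:88956670-88956969, plus strand: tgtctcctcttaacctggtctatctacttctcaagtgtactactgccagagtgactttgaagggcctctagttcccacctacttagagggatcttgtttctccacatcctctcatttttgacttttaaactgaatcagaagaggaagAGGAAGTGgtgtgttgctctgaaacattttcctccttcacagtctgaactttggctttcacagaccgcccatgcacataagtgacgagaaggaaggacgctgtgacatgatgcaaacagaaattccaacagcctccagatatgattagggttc
Over 294 aligned bases these windows differ at 6, an identity of 98.0%, and the alignment has 12 gap positions besides. The letters AGGAAGTG or their reverse complement occur in all 3 paralog windows and in 4.07% of the 32851 RefSeq promoter windows of the same length. A match of letters is a description and not a site.

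Around the 10 genes, 56 further genes of apoptosis were looked up, of which 45 were tested and 11 lay under a mean of 1 FPKM. By the labels limma called 0 of the 45, with 1 at an unadjusted p under 0.05, against 1.24% of all genes, and a median log2 difference of 0.01. By the table limma also called 0 of the 45, with 5 at an unadjusted p under 0.05, against 13% of all genes, a median of 0.02 and a smallest adjusted p of 0.349. Under voom the calls over all genes numbered 0 by the labels and 1 by the table. The sets by the table did not overlap for 8 of the 45, against 16.9% of all genes, and the labels for 2 of the 45, against 4.29%.

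Other guardians and BH3-only genes were mostly low or even. Bcl2l2, which encodes BCL-W, had the smallest p of the 45 by the table. It read 2.49, 2.39 and 0.995 FPKM across WT replicates 1, 2 and 3, then 1.82, 2.03 and 0.967 across CD40LΔ5 replicates 1, 2 and 3. Its means were 2.30 ± 0.243 FPKM for the MUT set against 1.26 ± 0.483 for the WT set (SD, n = 3), a log2 difference of 0.57 ± 0.17 (SE) with a limma adjusted p of 0.349. By the labels its log2 difference was -0.16. Bcl2l10, Bcl2a1c and the BH3-only gene Hrk were listed at 0 in all 6 libraries. Bcl2a1c shares 50-base words with Bcl2a1a, Bcl2a1b and Bcl2a1d, so its 0 is subject to the same uncertain split of reads. Bid, whose product links death receptors to mitochondria, was the highest of the further BH3-only genes after Bnip3l, at a mean of 34.0 FPKM, followed by Bmf at 13.8 FPKM and Bad at 12.2 FPKM. Pmaip1, which encodes NOXA, the BH3-only partner of MCL1, stood within 4.20 to 5.49 FPKM in all libraries. The list of further BH3-only genes was a broad one that includes Bcl2l12, Bnip3 and Bnip3l. Of its 7 genes tested, 4 had positive and 3 negative log2 differences under either grouping. These were not the same genes, since Bmf went from 0.05 by the labels to -0.02 by the table and Bnip3l from -0.01 to 0.12.

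Downstream, 6 of 14 apoptosome and caspase genes had positive and 8 negative log2 differences by the labels, with a median of -0.02. By the table the differences ran from -0.63 to 0.19. The lowest was that of Birc5, which encodes survivin and is a gene of mitosis as well, with 2.96, 6.93 and 7.78 FPKM across WT replicates 1, 2 and 3, then 6.78, 3.28 and 6.25 across CD40LΔ5 replicates 1, 2 and 3. Birc5 was lowest in WT replicate 1 and CD40LΔ5 replicate 2, like the cell cycle markers (limma adjusted p = 0.375 by the table). Htra2, a mitochondrial protease released in apoptosis, measured 13.9 ± 0.804 FPKM as MUT and 12.1 ± 0.444 FPKM as WT (adjusted p = 0.371). Birc3, an inhibitor of apoptosis that NF-kB induces, had the highest mean of the list, with values from 72.1 to 91.1 FPKM.

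Of 8 tested death receptor genes, Fas varied most. Fas encodes the receptor for Fas ligand and also marks germinal centre B cells, so it stands in that marker list too. It read 4.11, 11.5 and 9.61 FPKM across WT replicates 1, 2 and 3, then 14.3, 5.12 and 8.79 across CD40LΔ5 replicates 1, 2 and 3, lowest in the pair with the highest Bcl2. By the table its means were 6.92 ± 4.03 and 10.9 ± 2.97 FPKM (SD, n = 3), a log2 difference of -0.67 ± 0.34 (SE) with a limma adjusted p of 0.429. Cflar, which encodes the caspase-8 inhibitor FLIP, stood within 15.2 to 18.3 FPKM.

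Among regulators, Cdkn1a and genes of MCL1 turnover had the smallest p-values. Cdkn1a, the p53 target that encodes the cell cycle inhibitor p21, read 2.13, 1.87 and 1.10 FPKM across WT replicates 1, 2 and 3, then 0.636, 2.85 and 1.63 across CD40LΔ5 replicates 1, 2 and 3. It measured 2.28 ± 0.504 FPKM as MUT and 1.12 ± 0.500 FPKM as WT by the table (SD, n = 3; limma adjusted p = 0.352), and its log2 difference was -0.06 by the labels. Fbxw7, part of a ubiquitin ligase that marks MCL1 for decay, measured 10.3 ± 0.949 against 12.6 ± 0.496 FPKM by the table (adjusted p = 0.352). By the labels the only unadjusted p under 0.05 of the 45 genes was that of Huwe1, another ubiquitin ligase for MCL1. Huwe1 read 26.9, 24.3 and 25.4 FPKM across WT replicates 1, 2 and 3, then 33.5, 32.3 and 28.4 across CD40LΔ5 replicates 1, 2 and 3, with no overlap (log2 difference 0.28 ± 0.09 SE; limma adjusted p = 0.999993). Trp53 itself, which encodes p53, stood within 47.0 to 58.1 FPKM.

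**Figure D5:**
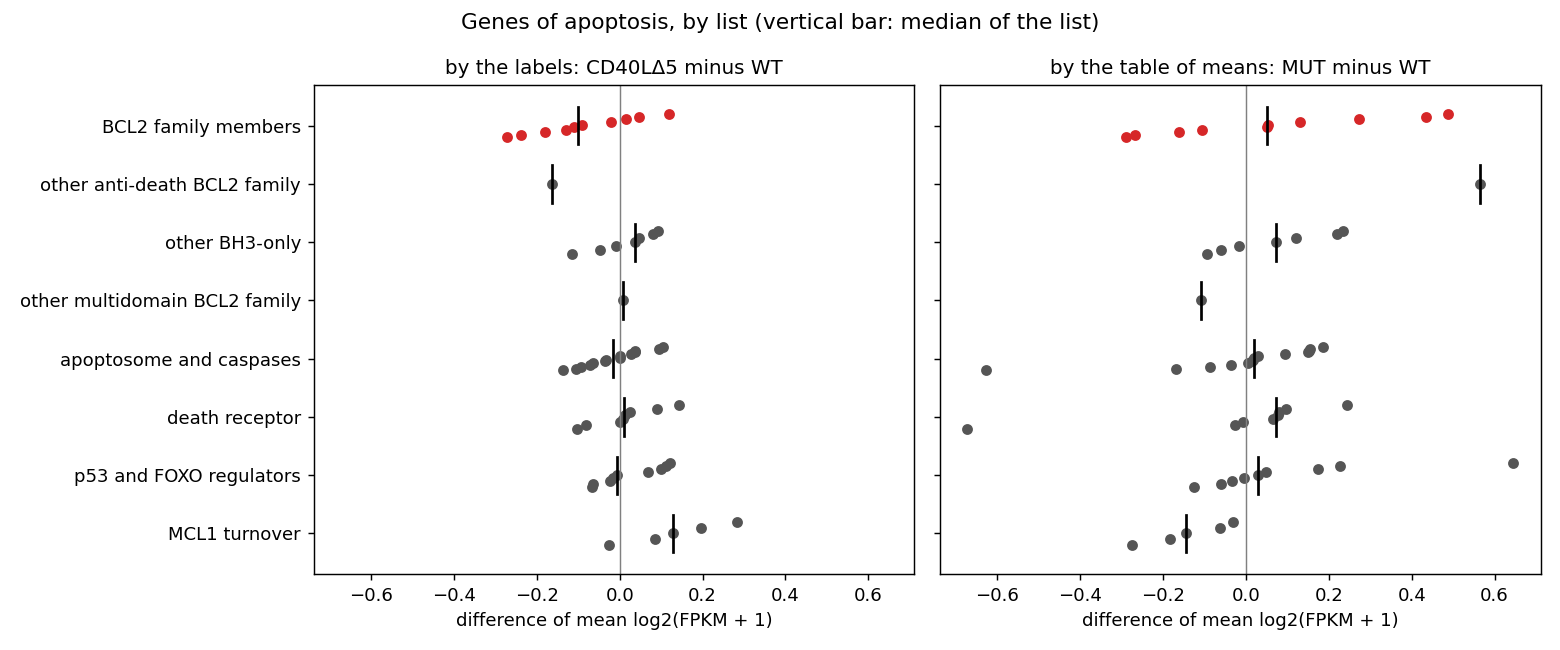
Difference of mean log2(FPKM + 1) for every tested gene of the BCL2 family set (top) and of 7 further apoptosis lists, by the labels (left, CD40LΔ5 minus WT) and by the table of means (right, MUT minus WT); each point is a gene and each bar the median of its list. The family ran from -0.27 to 0.12 by the labels and from -0.29 to 0.49 by the table.

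Genes with the pattern most like 3 members were sought among those with a mean of at least 10 FPKM, by the root mean square difference of centred log2(FPKM + 1) over the 6 libraries. For Bcl2 these were Dpp4 (0.094), Cd97 (0.094) and 1110007C09Rik (0.103), against a median of 0.303 over 5936 genes. Dpp4 read 28.1, 22.9 and 19.2 FPKM across WT replicates 1, 2 and 3, then 21.6, 30.1 and 22.3 across CD40LΔ5 replicates 1, 2 and 3, so its libraries had the same order as those of Bcl2. For Bcl2l11 they were Ube2s (0.042), Tmem214 (0.052) and Dap (0.052), against a median of 0.258. For Bcl2a1b they were Pet100 (0.066), 2010107E04Rik (0.090) and Cox7c (0.094), against a median of 0.394. Bcl2a1b rests on 10 to 42 reads, so counting error is part of its pattern. Its FPKM varied 4.69-fold over the libraries, a range that log2(FPKM + 1) narrows at this low level. All these values come from the same 6 libraries and share their cell make-up and depth.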

How the data were processed

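RNA of splenic pan-B cells was sequenced in 6 libraries. The authors deposited FPKM values per gene with a gene length, and a table of group means. Tools and builds that the submitters' processing notes list, in roles not given there, are mm9, DESeq2, STAR and CASAVA 1.8.2. Strand use and the treatment of reads that match several genes are not stated in the labels. Groups were taken from the labels, and separately from the table of means. Reads were recovered from the deposited FPKM values and gene lengths as whole numbers within 0.01 reads for 100% of values. Genes averaging 1 FPKM or more were tested on log2(FPKM + 1) with limma 3.58.1 in R 4.3.3 (empirical Bayes with a trend) and Benjamini-Hochberg adjustment over all 11252 genes, at 0.05. A fold on this scale understates changes of low genes. The script was tested on simulated data. Members and lists were chosen with earlier results of these data known. The rule for named genes took all 10 members, up to 4 genes of each apoptosis list with the smallest p in either grouping, the 3 genes most like Bcl2, Bcl2l11 and Bcl2a1b, and up to 3 most abundant markers of a list. Genes given by their level or range alone (among them Bid, Bmf, Bad, Pmaip1, Birc3, Cflar and Trp53) may fall outside it and were chosen after their values were seen, and not every gene the rule allows is named. Alternatives were other pseudocounts, filters and scalings, voom, a replicate block and each library left out.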

Additional observations from a re-analysis of the deposited data

How the results depend on the processing

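No member was called under any alternative, and the smallest adjusted p of a member (limma) was 0.918 by the labels and 0.160 by the table. By the table of means, limma called 3 genes in all, against 5 with a pseudocount of 0.1, 1 without a filter, 0 with a filter at 5 FPKM, 1 with quantile scaling, 1 with voom, and 1 to 16 with each library left out. By the labels the log2 difference of Bax was -0.00226 without immunoglobulin genes. An alternative chosen after seeing the data left out WT replicate 1 and CD40LΔ5 replicate 2. There the log2 difference by the labels was -0.0505 for Bax, -0.0238 for Mcl1, 0.00855 for Bbc3 and 0.0398 for Bak1. By the table it was 0.0837 for Bcl2l1 and -0.0870 for Mcl1. Of members that kept their sign by the table, Bcl2 was at 0.22, Bcl2l11 at -0.0242, Bcl2a1b at 0.87 and Bcl2a1d at 0.37. By the table that fit sets WT replicate 2 alone against 3 libraries and assumes that it varies like them, and the libraries left out are the highest for Bcl2 and the lowest for Bcl2l1 and Bcl2l11, so nothing is read from it. With each library left out, values by the labels ran from -0.0896 to 0.31 for Bcl2, -0.24 to 0.0335 for Bcl2l11, -0.0375 to 0.12 for Mcl1, -0.20 to 0.0176 for Bcl2a1a, -0.0242 to 0.0682 for Bax and -0.10 to 0.0281 for Bak1, and by the table from -0.0279 to 0.12 for Mcl1. Members that kept their sign moved as well: by the labels Bcl2l1 from -0.43 to -0.12, Bcl2a1b from -0.46 to -0.0740 (5 fits), Bcl2a1d from -0.24 to -0.0738 and Bbc3 from -0.27 to -0.0151, and by the table Bcl2l1 from -0.44 to -0.11, Bcl2l11 from -0.42 to -0.19, Bcl2a1d from 0.0121 to 0.20, Bbc3 from -0.26 to -0.0561, Bax from 0.0125 to 0.10 and Bak1 from -0.16 to -0.0628. By the table Bcl2 ran from 0.37 to 0.62, Bcl2a1a from 0.21 to 0.35 and Bcl2a1b from 0.32 to 0.60 (5 fits). Bcl2a1b has 5 fits because it fell below the level for testing without WT replicate 2. The cause of these moves was not tested. Deviations of same-numbered libraries from the means of their label groups had correlations of -0.38, 0.06 and 0.38. With 3 libraries a group, these values cannot decide whether the numbers pair the libraries. With a replicate block 0 genes were called by the labels, and 210 against 139 had an unadjusted limma p under 0.05. Counting error limits Bcl2a1a and Bcl2a1b, with 10 to 42 reads.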
